A study of Saccharomyces cerevisiae with 18 samples.

Results

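The comparison described here set W303-Δ*sky1*, a *Saccharomyces cerevisiae* strain without the kinase gene *SKY1*, against its parent W303, both grown without cisplatin. It rests on 6 of the 18 listed samples, 3 arrays of untreated W303-Δ*sky1* and 3 of untreated W303, each from a biological replicate. All 5698 genes with a yeast annotation on the Affymetrix GeneChip Yeast Genome 2.0 array were taken, with a single probe set for each gene. Both strains are haploid *MATa* and carry *ade2-1*, a *leu2* mutation, *trp1-100* and *ura3-52*, which block the synthesis of adenine, leucine, tryptophan and uracil, as well as *can1-100* in the arginine permease and, by the study's methods, a *his3* mutation. The cultures grew in complete synthetic medium at 30 °C, and the untreated ones received DMSO, the solvent of the drug, for 4 h. How *SKY1* was deleted, and whether the mutant is a single clone, is not given in the sources used here.

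Sky1 is the SR protein kinase of budding yeast. Kinases of this family phosphorylate serine residues next to arginine in RNA-binding proteins, and in yeast the best known substrate is Npl3, a protein that carries mRNA out of the nucleus and returns once it is phosphorylated by Sky1. Loss of Sky1 is also known to change the tolerance of yeast to polyamines and to some cations.

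Levels are given as log2 signals after robust multi-array averaging (RMA), so that 1 unit is a doubling, and differences are W303-Δ*sky1* minus W303 on that scale, with their standard error (SE) from limma. A differentially expressed gene (DEG) had a difference of 1.6-fold or more (0.678 in log2 units), with p under 0.01 before and under 0.05 after Benjamini-Hochberg adjustment over all 5698 genes. Each array averages a whole culture, so that a lower level in every cell and fewer cells with the transcript cannot be told apart.

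*SKY1* (YMR216C) checked the labels. Its level was 0.54, 1.33 and 0.56 on the W303-Δ*sky1* arrays, against 8.12, 7.98 and 8.17 on the W303 arrays. Only 1 of the 3 mutant arrays was above background, taken as the 95th percentile of the probe sets for *Schizosaccharomyces pombe* on the same array, so the transcript was at least 110-fold lower in W303-Δ*sky1*. On chromosome XIII its nearest neighbours are *GAS3*, a glycosyltransferase-like cell wall protein, and *GUA1*, the GMP synthase, with differences of -0.37 (SE 0.065, adjusted p = 0.00218) and 0.00 (SE 0.078, adjusted p = 0.99). The sign of *GUA1* depends on the array left out. The next gene beyond *GUA1*, *TRS130*, a subunit of a vesicle tethering complex, was a DEG. It had 8.07, 7.98 and 7.95 in W303-Δ*sky1*, against 7.26, 7.25 and 7.34 in W303, a difference of 0.71 (SE 0.063, adjusted p = 0.000111) that was 0.676 and under the threshold without W303-Δ*sky1* replicate 1.

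The arrays were alike in overall signal, with medians between 6.83 and 6.87, and between 98.6% and 99% of the genes were above background. Arrays of a strain correlated with r from 0.992 to 0.997, and arrays of different strains with r from 0.971 to 0.976. W303 replicate 2 stood furthest from its group. Estimated array weights ran from 0.45 for this array to 2.73 for W303 replicate 3. Replicate 2 was the lowest W303 array for 129 of the 281 upregulated DEGs (45.9%), against 25.6% for replicate 1 and 28.5% for replicate 3. These shares were counted among upregulated DEGs only, not over all genes. Without W303 replicate 2 there were 273 upregulated and 312 downregulated DEGs, of which 250 and 283 were DEGs with all arrays.

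Many genes differed between W303-Δ*sky1* and W303 by a moderate amount. There were 281 upregulated DEGs (4.93% of the genes tested) and 301 downregulated DEGs (5.28%). By the adjusted p alone, 1419 genes (24.9%) were higher and 1559 (27.4%) were lower. For 1681 genes (29.5%) all 3 mutant arrays lay above all 3 W303 arrays, and for 1851 (32.5%) all lay below. The median absolute difference was 0.25, against a median SD between replicates of 0.08 in W303-Δ*sky1* and 0.09 in W303. Most DEGs changed by less than 2-fold, with a median difference of 0.85 for the upregulated and -0.85 for the downregulated ones. Changes of at least 2-fold were seen in 80 upregulated and 79 downregulated DEGs, and of at least 4-fold in 4 and 3. A further 261 genes passed both p thresholds with changes between 1.5 and 1.6-fold, against 174 DEGs between 1.6 and 1.7-fold.

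DEGs were found at every level of expression, with a higher share among weakly expressed genes. Of the 1425 genes with the lowest levels 6.74% were upregulated and 6.39% downregulated, and of the 1425 with the highest levels 3.44% and 3.58%. The median SE was 0.095 among these low genes and 0.070 among the high ones. The gene lists described below hold 66 of the 281 upregulated and 103 of the 301 downregulated DEGs. Genes known only by a systematic name made up 13.5% of the upregulated and 10.0% of the downregulated DEGs, against 8.3% of all genes.

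**Figure D1:**
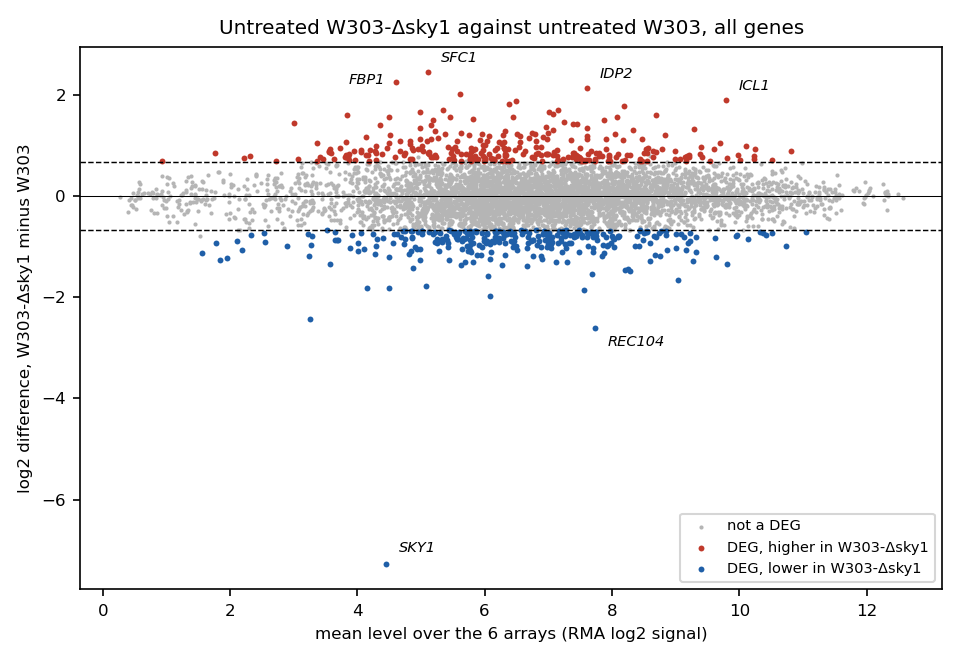
Difference of untreated W303-Δ*sky1* from its untreated parent W303 (log2, vertical axis) against the mean level over the 6 arrays (RMA log2 signal, horizontal axis), with 1 point for each of 5698 genes. Red points are the 281 upregulated and blue points the 301 downregulated DEGs, dashed lines mark the 1.6-fold threshold, and *SKY1* lies far below all other genes.

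Of the lists described here, those for the assembly of ribosomes held the most downregulated genes. Yeast makes its ribosomal subunits in the nucleolus, where RNA polymerase I transcribes a long precursor RNA and many assembly factors fold, cut, modify and export it. Of 153 such factors in the lists for the small (40S) and large (60S) subunit, 49 (32%) were downregulated and 0 were upregulated, against 5.28% and 4.93% of all genes. The W303-Δ*sky1* arrays lay below all W303 arrays for 123 of the 153 and above them for 9, against 32.5% and 29.5% of all genes. The median difference was -0.49, against -0.015 over all genes, and the 49 DEGs ranged from -1.78 to -0.68. The median level of the 40S factors was 6.01, 6.12 and 6.02 on the W303-Δ*sky1* arrays, against 6.63, 6.62 and 6.72 on the W303 arrays, so that the groups did not overlap as lists either.

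Among the factors for the 40S subunit, 26 of 77 were downregulated. *FYV7*, needed for the maturation of the small subunit RNA, had 3.91, 4.46 and 4.20 in W303-Δ*sky1*, against 5.77, 5.97 and 6.18 in W303, and fell by 1.78 (SE 0.15, adjusted p = 9.45e-05). *NOP56*, a core protein of the box C/D particles that guide methylation of ribosomal RNA, had 7.44, 7.68 and 7.50, against 9.00, 9.01 and 9.08 in W303 (-1.49, SE 0.077, adjusted p = 1.72e-05). In both genes every mutant array was lower than every W303 array by more than the spread of either strain. *NOP58*, the partner of *NOP56*, differed by -0.76.

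The large processing complex of the small subunit is built from modules. The UtpB module had the highest share of DEGs among the modules, with 4 of 6 subunits downregulated and all 6 lower at an adjusted p under 0.05 (median -0.82). Over all genes 5.28% were downregulated and 27.4% were lower by the adjusted p. Its member *DIP2* differed by -0.96. In the UtpA module 2 of 7 were downregulated, and *UTP15* had 6.28, 6.36 and 6.22 in W303-Δ*sky1*, against 7.35, 7.58 and 7.49 in W303 (-1.19, SE 0.079, adjusted p = 4.52e-05). None of the 3 UtpC subunits was a DEG (median -0.47). Further downregulated factors of this complex were *SOF1* (-1.25), *BFR2* (-1.17) and *NOP14* (-1.02), as was *EFG1* (-1.28), needed for processing at the start of the small subunit RNA. *SOF1* had 6.32, 6.32 and 6.18 in W303-Δ*sky1*, against 7.44, 7.52 and 7.60 in W303, without overlap.

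Among the factors for the 60S subunit, 23 of 76 were downregulated. *RIX7*, an ATPase that strips factors from the maturing large subunit, had 6.51, 6.44 and 6.42 in W303-Δ*sky1*, against 7.81, 7.69 and 7.81 in W303, and fell by 1.31 (SE 0.064, adjusted p = 1.66e-05). The nucleolar protein *NOP16* had 7.88, 8.07 and 7.93, against 9.07, 9.34 and 9.31 in W303 (-1.28, SE 0.092, adjusted p = 6.19e-05). Arrays of the strains were apart by more than 1 unit of log2 for *RIX7*, with a narrow spread in each strain. Of 4 RNA methyltransferases 3 were downregulated, with *NOP2* at -0.97 and *SPB1* at -0.95, against 5.28% of all genes. Of 5 GTPases 0 were downregulated, although all 5 were lower at an adjusted p under 0.05 (median -0.55), against 27.4% of all genes. *NOP8*, *RRP14* and *EBP2*, which act early on the large subunit, differed by -1.04, -1.01 and -1.004. *TIF6*, which keeps the subunits apart until the large one is mature, differed by -0.81.

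A few assembly factors went the other way without reaching 1.6-fold. *JJJ1*, a co-chaperone of late 60S maturation in the cytoplasm, had 4.98, 5.30 and 5.39 in W303-Δ*sky1*, against 4.62, 4.45 and 4.62 in W303 (0.66, SE 0.111, adjusted p = 0.00181). *SPB4*, an RNA helicase of the 60S pathway, had 6.53, 6.86 and 6.76, against 5.99, 6.00 and 6.31 in W303 (0.62, SE 0.114, adjusted p = 0.00288). Neither gene overlapped between the strains. Each passed 1.6-fold without W303-Δ*sky1* replicate 1, at 0.78 for *JJJ1* and 0.71 for *SPB4*, and without W303 replicate 3, at 0.69 and 0.72. *JJJ1* did so without W303 replicate 1 too, at 0.69.

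**Figure D2:**
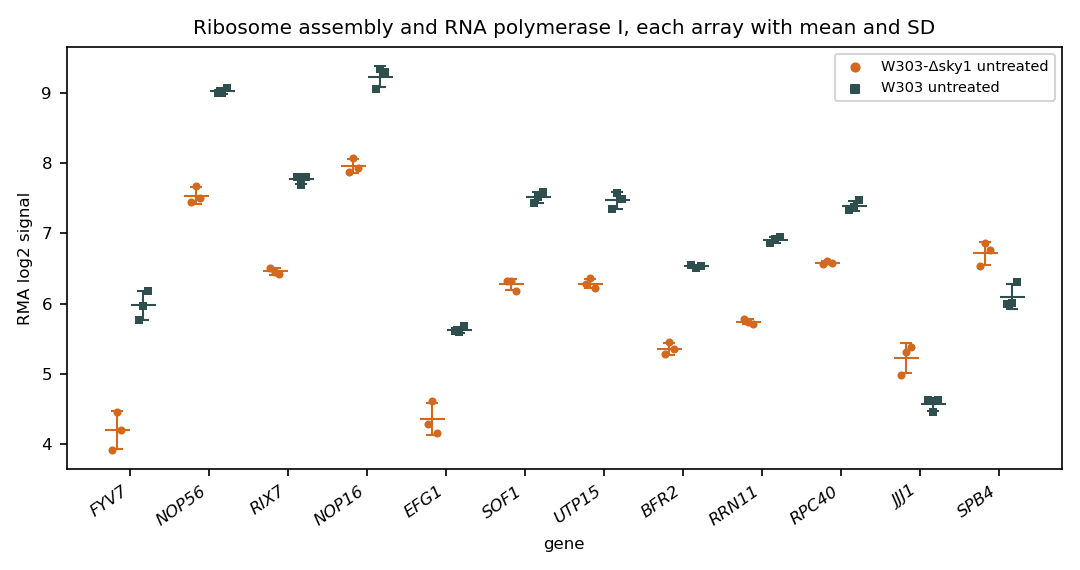
RMA log2 signal on each array for 10 downregulated genes of ribosome assembly and RNA polymerase I and for *JJJ1* and *SPB4*, with W303-Δ*sky1* as circles on the left and W303 as squares on the right of each gene. Lines show the mean and SD of the 3 arrays, and the strains do not overlap in any of the 12 genes, with *FYV7* at 3.91 to 4.46 in W303-Δ*sky1* against 5.77 to 6.18 in W303.

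Other parts of the machinery for making and using ribosomes changed less. Of 18 genes of RNA polymerase I and its initiation factors 4 (22.2%) were downregulated and 0 upregulated (median -0.23). Over all genes 5.28% were downregulated and 4.93% upregulated. *RRN11*, a subunit of the core initiation factor, had 5.77, 5.74 and 5.71 in W303-Δ*sky1*, against 6.86, 6.92 and 6.95 in W303 (-1.17, SE 0.059, adjusted p = 1.69e-05). *RPC40*, a subunit shared with RNA polymerase III, and *RPA190*, the largest subunit, differed by -0.82 and -0.79. The fourth, *RPA49*, differed by -0.75 and was under the threshold, at -0.675, without W303-Δ*sky1* replicate 1. RNA polymerase III and its factors had 0 DEGs among 19 genes (median -0.15), and cytosolic aminoacyl-tRNA synthetases had 0 among 18 (median -0.25). Of the synthetases 10 (55.6%) were lower at an adjusted p under 0.05, against 27.4% of all genes.

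The ribosomal proteins themselves stayed close to the level of W303. For the 130 probe sets of cytosolic ribosomal proteins the median difference was 0.01, with 24 higher and 12 lower at an adjusted p under 0.05, shares below those of all genes. The 1 DEG among them was *RPS1A* at -0.70, which was not called without W303-Δ*sky1* replicate 1 (-0.66), W303-Δ*sky1* replicate 3 (-0.67) or W303 replicate 3 (-0.67). Because many of these genes are close duplicates, single members can carry signal of their copies. Mitochondrial ribosomal proteins had 3 downregulated DEGs among 66 (4.55%, near the 5.28% of all genes), with a median of -0.09. Of 8 regulators of ribosome production none was a DEG. *SCH9*, a kinase that promotes it, differed by -0.51 (adjusted p = 0.000868), and the paralogous repressors of assembly factor genes *DOT6* and *TOD6* by 0.39 (adjusted p = 0.00265) and -0.33 (adjusted p = 0.0124).

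**Figure D3:**
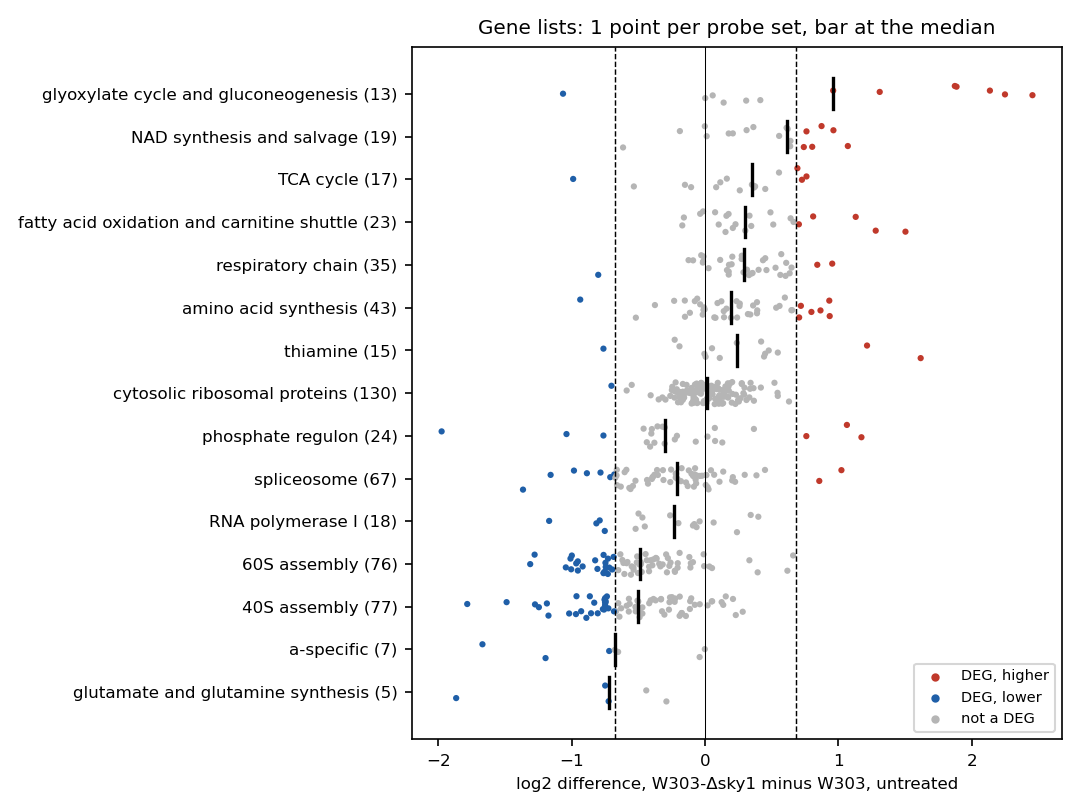
Difference of untreated W303-Δ*sky1* from its untreated parent W303 (log2, horizontal axis) for 15 gene lists, with 1 point for each probe set, its number in parentheses and a black bar at the median. Dashed lines mark the 1.6-fold threshold, and the medians run from 0.96 for the glyoxylate cycle and gluconeogenesis to -0.72 for glutamate and glutamine synthesis.

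Genes for growth on carbon sources other than glucose had the highest median of the pathway lists. Yeast growing on glucose represses the glyoxylate cycle, which builds larger molecules from acetyl units, and gluconeogenesis, which turns them into glucose phosphate. Of 13 genes for these routes 7 were upregulated and 1 was downregulated, against 4.93% and 5.28% of all genes, with a median of 0.96. *SFC1*, the mitochondrial carrier that exchanges succinate for fumarate, had 6.44, 6.30 and 6.25 in W303-Δ*sky1*, against 4.18, 3.79 and 3.67 in W303. Its difference of 2.45 (SE 0.131, adjusted p = 1.98e-05) was the largest increase of all genes. *FBP1*, the bisphosphatase of gluconeogenesis, had 5.75, 5.83 and 5.62, against 3.70, 3.36 and 3.41 in W303 (2.25, SE 0.102, adjusted p = 1.17e-05). *IDP2*, the cytosolic NADP-dependent isocitrate dehydrogenase, had 8.73, 8.58 and 8.70, against 6.66, 6.42 and 6.52 in W303 (2.13, SE 0.081, adjusted p = 9.3e-06). In all of these the arrays of the strains were about 2 units of log2 apart.

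Both enzymes particular to the glyoxylate cycle were upregulated. *ICL1*, isocitrate lyase, had 10.77, 10.62 and 10.82 in W303-Δ*sky1*, against 9.12, 8.51 and 8.92 in W303 (1.89, SE 0.147, adjusted p = 7.89e-05). *MLS1*, malate synthase, had 9.04, 8.91 and 9.02, against 8.06, 7.25 and 7.74 in W303 (1.31, SE 0.179, adjusted p = 0.000672). W303 replicate 2 was the lowest array in both genes, and the strains did not overlap. *PCK1*, which commits oxaloacetate to gluconeogenesis, had 7.45, 7.41 and 7.41, against 5.75, 5.24 and 5.66 in W303 (1.87, SE 0.125, adjusted p = 4.65e-05). The lactate and pyruvate transporter *JEN1* differed by 0.96 (SE 0.070, adjusted p = 6.19e-05). *AGX1*, which makes glycine from glyoxylate and was not in the list, had 7.39, 7.27 and 7.23, against 5.76, 5.30 and 5.36 in W303 (1.82, SE 0.123, adjusted p = 4.65e-05).

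Not every gene of these routes was upregulated. *MDH2*, the cytosolic malate dehydrogenase of the same cycle, had 8.72, 8.59 and 8.59 in W303-Δ*sky1*, against 9.66, 9.72 and 9.73 in W303, and fell by 1.06 (SE 0.064, adjusted p = 2.74e-05). *CIT2*, the peroxisomal citrate synthase, differed by 0.06 (adjusted p = 0.62), and *ACS1*, an acetyl-CoA synthetase, by 0.31 (adjusted p = 0.0603). *ADY2*, an acetate transporter, had 7.83, 7.69 and 7.69 in W303-Δ*sky1*, against 6.67, 8.69 and 7.85 in W303. The W303 arrays of this gene spread over 2 units of log2, so that a difference was not detectable, and its sign depends on the array left out.

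**Figure D4:**
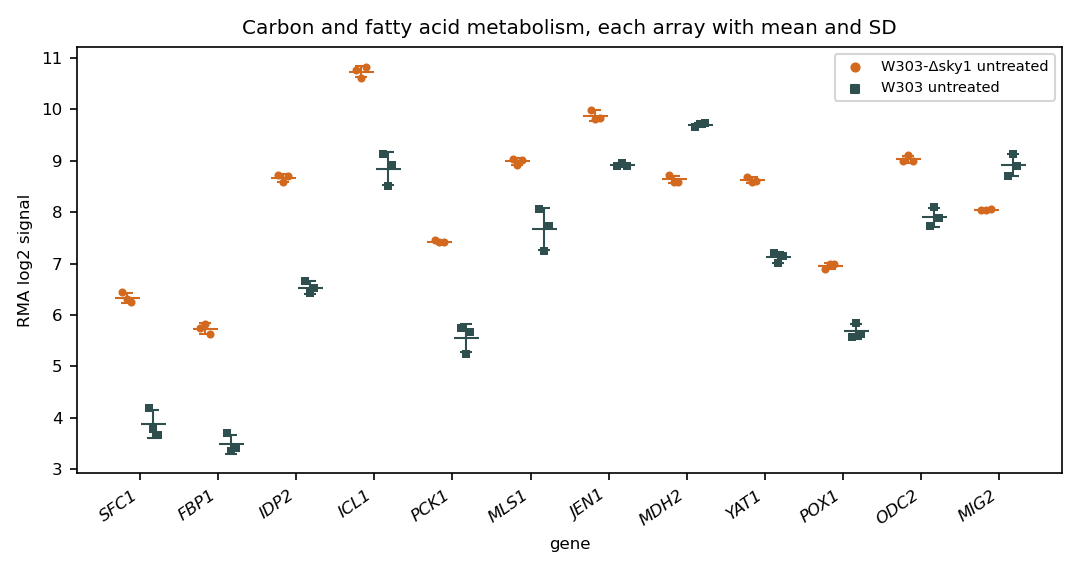
RMA log2 signal on each array for 12 genes of carbon and fatty acid metabolism, with W303-Δ*sky1* as circles on the left and W303 as squares on the right of each gene. Lines show the mean and SD of the 3 arrays, and the strains do not overlap in any of the 12 genes, with *MDH2* and *MIG2* lower and the other 10 higher in W303-Δ*sky1*.

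Some regulators of the choice of carbon source were DEGs too. *MIG2*, a repressor that acts on glucose, had 8.04, 8.05 and 8.06 in W303-Δ*sky1*, against 8.71, 9.14 and 8.91 in W303 (-0.87, SE 0.105, adjusted p = 0.000377). *REG2*, a subunit of the phosphatase that opposes the Snf1 kinase, had 6.33, 6.38 and 6.39, against 5.57, 5.47 and 5.51 in W303 (0.85, SE 0.059, adjusted p = 5.12e-05). Neither overlapped between the strains. *ADR1*, an activator of genes for ethanol and fatty acids, was called at 0.69, and was not called without W303-Δ*sky1* replicate 3 (0.67) or W303 replicate 2 (0.57). The activators *CAT8* and *SIP4* differed by 0.31 (adjusted p = 0.0051) and 0.43 (adjusted p = 0.0036), the kinase *SNF1* by 0.30 (adjusted p = 0.0157), the repressor *MIG1* by -0.47 (adjusted p = 0.00131) and the hexokinase *HXK2* by -0.52 (adjusted p = 0.000344), all under 1.6-fold. In all, 2 of 13 such genes (15.4%) were upregulated and 1 (7.69%) downregulated, against 4.93% and 5.28% of all genes (median 0.16). By the adjusted p 6 (46.2%) were higher and 3 (23.1%) lower, against 24.9% and 27.4% of all genes.

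Genes for the oxidation of fatty acids were higher as a group. This takes place in peroxisomes, and its acetyl units leave on carnitine. Of 23 genes 5 were upregulated and 0 downregulated, 12 were higher at an adjusted p under 0.05 and 0 lower, and the median was 0.30. Over all genes the shares were 4.93% and 5.28% for DEGs, and 24.9% and 27.4% by the adjusted p. *YAT1*, an outer carnitine acetyltransferase, had 8.69, 8.59 and 8.60 in W303-Δ*sky1*, against 7.21, 7.00 and 7.15 in W303 (1.502, SE 0.073, adjusted p = 1.6e-05). *POX1*, the oxidase of the first step, had 6.89, 7.00 and 6.99, against 5.56, 5.85 and 5.63 in W303 (1.28, SE 0.085, adjusted p = 4.52e-05). *POT1*, the thiolase of the last step, differed by 0.81, and *FOX2*, the enzyme between them, by 0.64 (adjusted p = 0.000101), just under the fold threshold. The thioesterase *TES1* was called at 0.70, and without W303 replicate 3 it was at 0.67 and not called. *ODC2*, a mitochondrial carrier of dicarboxylates, differed by 1.13 (SE 0.097, adjusted p = 9.83e-05). The peroxins, which build the organelle itself, had 0 DEGs among 26 genes, with 8 higher (30.8%, near the 24.9% of all genes) and 0 lower at an adjusted p under 0.05 (median 0.14).

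Mitochondrial respiration followed with smaller differences. Of 35 genes of the respiratory chain 21 were higher and 1 was lower at an adjusted p under 0.05, against 24.9% and 27.4% of all genes (median 0.29). Only 2 (5.71%) were upregulated and 1 (2.86%) downregulated DEGs, against 4.93% and 5.28% of all genes. *COX4*, a subunit of cytochrome c oxidase, had 9.03, 9.10 and 9.00 in W303-Δ*sky1*, against 8.39, 7.76 and 8.13 in W303 (0.95, SE 0.143, adjusted p = 0.00103). *NDE2*, an external NADH dehydrogenase, differed by 0.84, and *CYC7*, the cytochrome c isoform of low oxygen, by -0.80. In the tricarboxylic acid cycle 10 of 17 genes were higher and 2 lower at an adjusted p under 0.05 (median 0.35). Its DEGs were *LSC1* (0.76), a succinyl-CoA ligase subunit, *FUM1* (0.73), *SDH2* (0.69) and, in the other direction, *CIT3* (-0.99), a mitochondrial citrate synthase. *FUM1* and *SDH2* were not called without W303 replicate 2, at 0.63 and 0.61, nor *SDH2* without W303-Δ*sky1* replicate 3, at 0.64. *CYC2* (0.79) and *CYT2* (0.73), which attach haem to cytochromes c, were upregulated as well.

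Sugar uptake and storage gave DEGs in both directions. *HXT1*, a low-affinity glucose transporter, had 10.11, 10.04 and 10.08 in W303-Δ*sky1*, against 8.91, 9.38 and 9.14 in W303 (0.93, SE 0.111, adjusted p = 0.000368), and *STD1*, a regulator of such transporters, differed by -1.03 (SE 0.069, adjusted p = 4.65e-05). *HXT13*, another sugar transporter, had 4.32, 4.03 and 4.12, against 6.35, 4.66 and 5.73 in W303 (-1.43, SE 0.362, adjusted p = 0.012). The W303 values of this gene were far apart, and it was not called with any 1 of the 3 W303-Δ*sky1* arrays left out (adjusted p from 0.0301 to 0.0399) or W303 replicate 3 (adjusted p = 0.0399), since p before adjustment was then over 0.01. *GAC1*, a phosphatase subunit that promotes glycogen storage, had 6.95, 6.96 and 6.85, against 8.61, 8.31 and 8.46 in W303 (-1.54, SE 0.087, adjusted p = 2.32e-05). The 22 probe sets of glycolysis held 0 DEGs (median 0.02), against 4.93% upregulated and 5.28% downregulated over all genes.

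Genes for the synthesis of glutamate, the main carrier of nitrogen in the cell, were lower in W303-Δ*sky1*. All 5 genes in this list lay below W303 without overlap, all 5 had an adjusted p under 0.05, and 3 were DEGs (median -0.72), against 32.5%, 27.4% and 5.28% of all genes. *GDH3*, a glutamate dehydrogenase that fixes ammonium, had 6.76, 6.55 and 6.56 in W303-Δ*sky1*, against 8.73, 8.35 and 8.40 in W303, and fell by 1.87 (SE 0.112, adjusted p = 2.69e-05). *GLT1*, glutamate synthase, differed by -0.75 (SE 0.073), and *IDP1*, the mitochondrial isocitrate dehydrogenase that can supply the carbon skeleton, by -0.72 (SE 0.060). *GDH1* and *GLN1*, the main dehydrogenase and glutamine synthetase, differed by -0.29 (adjusted p = 0.00577) and -0.44 (adjusted p = 0.00156). In the opposite direction, *GDH2*, which degrades glutamate, had 10.59, 10.53 and 10.65 in W303-Δ*sky1*, against 9.64, 9.59 and 9.60 in W303 (0.98, SE 0.060, adjusted p = 3.11e-05).

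Uptake of nitrogen sources split. The proline permease *PUT4* had 9.48, 9.33 and 9.47 in W303-Δ*sky1*, against 7.90, 8.56 and 8.23 in W303 (1.20, SE 0.152, adjusted p = 0.000476). *DAL5*, a permease for allantoate and dipeptides, had 8.13, 8.09 and 8.04, against 9.48, 9.05 and 9.22 in W303 (-1.17, SE 0.106, adjusted p = 0.000118). The peptide transporter *PTR2* and the vacuolar carboxypeptidase *CPS1* differed by -0.73 and -0.77. *CHA1*, which degrades serine and threonine, had 7.32, 7.56 and 7.56, against 9.16, 8.65 and 9.00 in W303 (-1.46, SE 0.134, adjusted p = 0.000125). Of the 28 genes of nitrogen catabolite repression 2 (7.14%) were upregulated and 4 (14.3%) downregulated, against 4.93% and 5.28% of all genes (median -0.12). The fourth of the downregulated ones, the ammonium permease *MEP2*, was called at -0.69 and was between -0.675 and -0.646 and not called without W303-Δ*sky1* replicate 1 or 2 or W303 replicate 1 or 3.

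Amino acid synthesis was on the higher side, with 21 of 43 genes higher (48.8%) and 4 lower (9.3%) at an adjusted p under 0.05, against 24.9% and 27.4% of all genes. As DEGs 6 were upregulated and 1 downregulated, against 4.93% and 5.28% of all genes (median 0.19). Of the upregulated ones 3 act in arginine synthesis, *ARG3* (0.93), *ARG5,6* (0.86) and *ARG1* (0.71). The others were *ARO4* (0.93), of the aromatic pathway, *HOM2* (0.80), of threonine and methionine synthesis, and *ILV3* (0.72), of the branched chains, whereas *LYS4* (-0.94), of lysine synthesis, was downregulated. *ARO4* had 8.32, 8.41 and 8.40 in W303-Δ*sky1*, against 7.31, 7.54 and 7.48 in W303, without overlap.

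Sulfur assimilation held DEGs in both directions, and by the adjusted p more genes were lower than higher. Of 32 genes 2 (6.25%) were upregulated and 3 (9.38%) downregulated, against 4.93% and 5.28% of all genes (median -0.15). At an adjusted p under 0.05, 6 (18.8%) were higher and 13 (40.6%) lower, against 24.9% and 27.4% of all genes. *SUL1*, a sulfate permease, had 5.76, 5.93 and 5.91 in W303-Δ*sky1*, against 4.79, 4.38 and 4.21 in W303 (1.41, SE 0.139, adjusted p = 0.000162). *MHT1*, a methyltransferase that forms methionine, had 5.29, 5.19 and 5.17, against 4.43, 4.47 and 4.56 in W303 (0.73, SE 0.065, adjusted p = 0.000112). *MET2*, which activates homoserine for methionine synthesis, was lower, with 4.48, 4.45 and 3.97, against 5.18, 5.78 and 5.22 in W303 (-1.09, SE 0.190, adjusted p = 0.00212). The cysteine transporter *YCT1* differed by -0.90.

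Synthesis and salvage of NAD was higher as a group, with 14 of 19 genes higher and 2 lower at an adjusted p under 0.05 (24.9% and 27.4% of all genes), 6 upregulated and 0 downregulated (4.93% and 5.28% of all genes), and a median of 0.61. The median was 0.53 without W303-Δ*sky1* replicate 2 or without W303 replicate 2. *URH1*, a hydrolase of nicotinamide riboside and uridine, had 6.72, 6.71 and 6.83 in W303-Δ*sky1*, against 5.65, 5.65 and 5.76 in W303 (1.07, SE 0.066, adjusted p = 3.02e-05). Its salvage partner *PNP1*, a nucleoside phosphorylase, differed by 0.80, the kynurenine pathway enzymes *BNA5* and *BNA7* by 0.96 and 0.87, the NAD synthetase *QNS1* by 0.76 and the nucleotidase *SDT1* by 0.74.

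Thiamine and phosphate genes held some of the largest single differences. The probe set common to 4 near-identical genes of thiamine precursor synthesis (THI11/THI12/THI13/THI5) had 7.87, 7.89 and 7.86 in W303-Δ*sky1*, against 6.41, 6.04 and 6.33 in W303 (1.62, SE 0.097, adjusted p = 2.69e-05). *THI20*, of the same pathway, differed by 1.21. In the thiamine list 2 of 15 probe sets (13.3%) were upregulated and 1 (6.67%) downregulated, against 4.93% and 5.28% of all genes. By the adjusted p 8 (53.3%) were higher and 3 (20%) lower, against 24.9% and 27.4% of all genes (median 0.24). The acid phosphatases *PHO11* and *PHO12*, also read by a common probe set (PHO11/PHO12), had 5.05, 5.11 and 5.15, against 7.31, 6.75 and 7.16 in W303 (-1.98, SE 0.134, adjusted p = 4.81e-05), and *PHO5*, the main secreted acid phosphatase, differed by -1.04. The phosphatase gene *PHO3* was downregulated too, at -0.76, and was not called without W303 replicate 1 (-0.65). Other phosphate genes were upregulated, namely *PHM8* (1.17), *GIT1* (1.06) and *PHM7* (0.76). In this list 4 of 24 probe sets were higher (16.7%) and 14 lower (58.3%) at an adjusted p under 0.05, against 24.9% and 27.4% of all genes (median -0.30).

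Transcripts of the SR-like proteins, the best known partners of Sky1, differed little. *NPL3* had 11.10, 11.12 and 11.12 in W303-Δ*sky1*, against 11.36, 11.27 and 11.33 in W303 (-0.20, SE 0.058, adjusted p = 0.019). The other SR-like genes *HRB1* and *GBP2* differed by -0.16 (adjusted p = 0.0809) and 0.05 (adjusted p = 0.644). Of 12 genes for such proteins and mRNA export 2 (16.7%) were downregulated, against 5.28% of all genes, and these differed more. *HRP1*, a shuttling protein of the factor that cleaves mRNA ends, had 7.49, 7.57 and 7.54, against 8.91, 9.12 and 8.90 in W303, and fell by 1.44 (SE 0.077, adjusted p = 1.91e-05). *YRA1*, an mRNA export adaptor, differed by -0.77, and *MEX67*, the export receptor, by -0.58 (adjusted p = 0.00032), under 1.6-fold.

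Components of the spliceosome tended to be lower. Of 67 genes 2 were upregulated and 7 downregulated, against 4.93% and 5.28% of all genes, and 7 (10.4%) were higher and 29 (43.3%) lower at an adjusted p under 0.05, against 24.9% and 27.4% (median -0.21). *SYF2*, of the complex that stabilises the active spliceosome, had 5.05, 5.03 and 4.74 in W303-Δ*sky1*, against 6.01, 6.59 and 6.30 in W303 (-1.37, SE 0.150, adjusted p = 0.000256). *ECM2* (-1.16), *SME1* (-0.98), *PRP39* (-0.89) and *SNT309* (-0.78) were downregulated too. *SPP382*, needed to take the spliceosome apart, was higher, with 6.69, 6.73 and 6.91, against 5.79, 5.65 and 5.82 in W303 (1.02, SE 0.082, adjusted p = 8.2e-05), as was *MUD1* (0.86), of the U1 particle.

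Among the genes listed for polyamines and cations, *TPO5*, a polyamine exporter, had 7.38, 7.27 and 7.40 in W303-Δ*sky1*, against 6.35, 6.16 and 6.31 in W303 (1.08, SE 0.073, adjusted p = 4.81e-05). *OAZ1*, the antizyme that limits polyamine synthesis, had 6.52, 6.88 and 6.56, against 7.76, 7.73 and 7.82 in W303 (-1.12, SE 0.099, adjusted p = 0.000109). The potassium transporter *TRK2* differed by 0.89. These were the 3 DEGs among 25 probe sets (8% upregulated and 4% downregulated, against 4.93% and 5.28% of all genes). At an adjusted p under 0.05, 10 were higher and 4 lower, against 24.9% and 27.4% of all genes (median 0.17). In the iron regulon the cell wall mannoprotein *FIT1* and the reductase *FRE3* were upregulated (1.24 and 0.88), and *FIT2*, a second such mannoprotein, had 3.47, 3.64 and 3.46, against 4.25, 4.45 and 4.21 in W303 (-0.78, SE 0.086, adjusted p = 0.000265).

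Meiotic genes held DEGs in both directions, 7 up and 6 down among 25, against 4.93% and 5.28% of all genes. *REC104*, of the complex that starts meiotic recombination, had 6.50, 6.31 and 6.46 in W303-Δ*sky1*, against 9.13, 8.92 and 9.05 in W303. Its fall by 2.61 (SE 0.081, adjusted p = 4.01e-06) was the largest after that of *SKY1*. Its partners went the other way. *REC102* had 5.74, 5.80 and 5.88, against 4.16, 4.16 and 4.15 in W303 (1.65, SE 0.062, adjusted p = 9.3e-06), and *SPO11* differed by 1.43 (SE 0.123, adjusted p = 9.83e-05). The activator *NDT80* and the kinase *IME2* differed by 1.40 and 0.84, whereas *IME1*, the activator at the top of the pathway, had 3.40, 3.37 and 3.37, against 4.69, 4.24 and 4.29 in W303 (-1.02, SE 0.115, adjusted p = 0.000289). *RCK1* (-1.37), a kinase, and *UME1* (-1.08), a repressor of early meiotic genes, were downregulated.

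Of the mating type markers, all 7 a-specific genes were detected, as in *MATa* cells, and of the 4 α-specific genes 3 were low but *SAG1* was not. Of the 7 a-specific genes 3 (42.9%) were downregulated, against 5.28% of all genes (median -0.68). *MFA2*, a gene for the a-factor pheromone, had 8.26, 8.31 and 8.04 in W303-Δ*sky1*, against 9.79, 9.92 and 9.90 in W303 (-1.67, SE 0.084, adjusted p = 1.69e-05). *BAR1*, the protease that degrades the α-factor, had 6.23, 6.08 and 6.18, against 7.48, 7.25 and 7.35 in W303 (-1.20, SE 0.079, adjusted p = 4.52e-05). The receptor *STE2* differed by -0.72, and without W303 replicate 2 by -0.63, under the threshold. *STE6*, the a-factor exporter, and *AGA2*, an agglutinin, differed by -0.677 and -0.65, just under it. *MFA1*, the other a-factor gene, differed by -0.04 (adjusted p = 0.65) and *ASG7* by 0.00 (adjusted p = 0.983), with a sign that depends on the array left out. Of the 4 α-specific genes, *MF(ALPHA)1* and *MF(ALPHA)2* were low in both strains, from 1.28 to 1.86 and from 2.02 to 2.31, *STE3* was low with 2.65, 2.64 and 2.52 in W303-Δ*sky1*, against 2.02, 2.46 and 2.12 in W303 (0.41, SE 0.114, adjusted p = 0.0181), and *SAG1*, the α-agglutinin, was between 7.12 and 7.26 on all arrays, above their medians.

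The whole lists of stress and DNA damage reporters had medians near 0. *DIN7*, a mitochondrial nuclease gene induced by DNA damage, had 5.72, 5.62 and 5.65 in W303-Δ*sky1*, against 4.39, 4.24 and 4.31 in W303 (1.35, SE 0.066, adjusted p = 1.6e-05). *HUG1*, a small inhibitor of ribonucleotide reductase under checkpoint control, had 8.24, 8.32 and 8.27, against 6.89, 7.05 and 6.90 in W303 (1.33, SE 0.067, adjusted p = 1.69e-05). Both were apart from W303 by far more than the spread between arrays. The catalytic subunit gene *RNR1* differed by -0.79, and the other 11 of 14 DNA damage reporters were not DEGs (median -0.01). Upregulated DEGs made up 14.3% and downregulated ones 7.14% of these reporters, against 4.93% and 5.28% of all genes. Among 25 stress reporters the stress activator *MSN4* differed by -1.03 and 1 gene was upregulated (median -0.005). Parts of this list went in opposite directions. Of 9 enzymes and others 5 (55.6%) were higher and 0 lower at an adjusted p under 0.05 (median 0.24). Of 12 chaperones 0 were higher and 4 (33.3%) lower (median -0.17), against 24.9% and 27.4% of all genes. *SDP1*, a phosphatase that restrains the cell wall integrity kinase, had 5.21, 5.35 and 5.23, against 6.83, 6.90 and 6.81 in W303 (-1.58, SE 0.065, adjusted p = 1.12e-05).

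Cell cycle genes had 1 DEG in each direction among 31 (3.23% each), under the 4.93% and 5.28% of all genes. The G1 cyclin *PCL1* had 5.89, 5.84 and 5.85 in W303-Δ*sky1*, against 4.24, 5.02 and 4.46 in W303 (1.29, SE 0.176, adjusted p = 0.000669), and *MCM5*, of the helicase loaded at replication origins, had 6.00, 5.92 and 5.92, against 6.95, 6.98 and 6.91 in W303 (-1.0, SE 0.058, adjusted p = 2.38e-05). Core and linker histones (9 probe sets), the proteasome (34) and purine and one-carbon synthesis (18) had 0 DEGs. At the shares of all genes, lists this small would hold few.

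The same strain comparison was made on the 6 arrays of cultures given 600 µM cisplatin for 4 h, in a table that was normalized separately. It shares no array with the untreated comparison, but control and treated cultures were aliquots of the same parent cultures. There were 500 upregulated (8.78%) and 636 downregulated (11.2%) DEGs with the drug. Of the untreated DEGs, 204 were also upregulated with cisplatin, 72.6% of the 281 and 40.8% of the 500. Likewise 225 were also downregulated, 74.8% of the 301 and 35.4% of the 636. The 281 genes had a median difference of 0.85 without and 0.95 with cisplatin, and the 301 genes one of -0.85 without and -0.96 with cisplatin. A test of the difference between the comparisons was not made, because the tables were normalized apart.

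Side by side, the groups with the largest medians kept their sign with cisplatin. Of the 153 ribosome assembly factors 91 were downregulated with the drug, and 45 of these were downregulated without it. Over all genes 11.2% were downregulated with the drug and 5.28% without it. Their median was -0.49 without and -0.74 with cisplatin. For the glyoxylate cycle and gluconeogenesis the median was 0.96 without and 1.44 with cisplatin, for fatty acid oxidation 0.30 and 0.73, and for glutamate and glutamine synthesis -0.72 and -0.85. Other groups had smaller medians with the drug. For NAD synthesis and salvage the median was 0.61 without and 0.49 with cisplatin, for the a-specific genes -0.677 and -0.605, and for the tricarboxylic acid cycle 0.35 and 0.27. The sign of the median was not kept in every list. For amino acid synthesis it was 0.19 without and -0.09 with cisplatin, and for meiotic genes 0.10 and -0.14. Among single genes, *RGI2*, named for its induction in respiratory growth, had 9.09, 9.26 and 8.89 in untreated W303-Δ*sky1*, against 7.05, 7.67 and 7.19 in untreated W303 (1.78, SE 0.163, adjusted p = 0.000123), and differed by 3.35 with cisplatin. *GLN1* differed by -0.44 without and -1.84 with cisplatin.

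Sulfur assimilation stood differently in the comparison with the drug, with 1 of 32 genes upregulated and 21 downregulated (median -0.94), against 2 and 3 without it (median -0.15). Over all genes 8.78% were upregulated and 11.2% downregulated with the drug, against 4.93% and 5.28% without it. *MHT1* and *FIT2* were the 2 genes that were DEGs in opposite directions. *MHT1* differed by 0.73 without and -0.76 with cisplatin, and *FIT2* by -0.78 without and 1.503 with cisplatin.

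**Figure D5:**
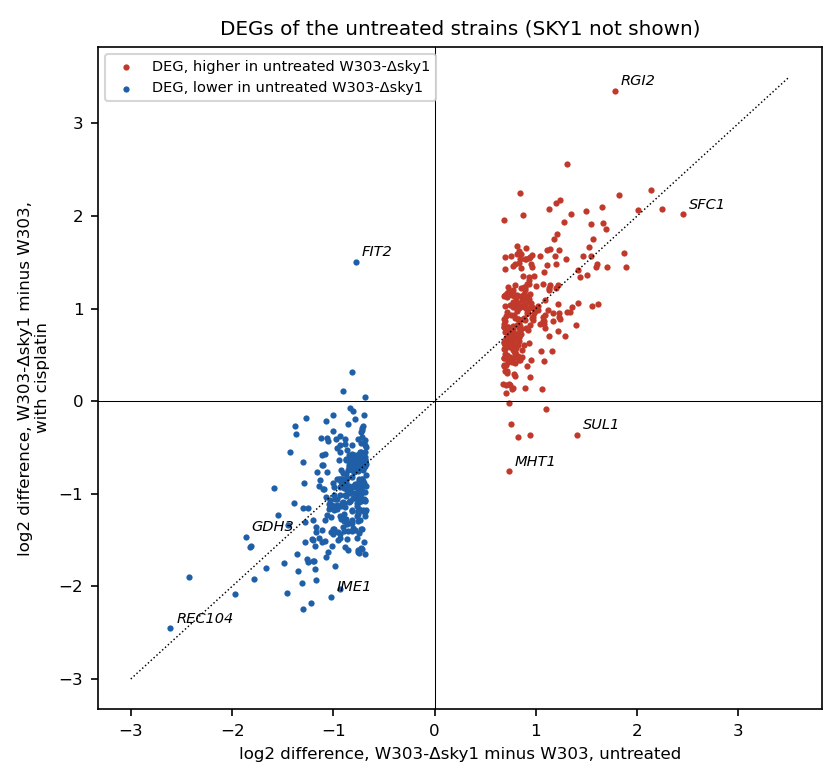
Difference between W303-Δ*sky1* and W303 with cisplatin (log2, vertical axis) against that without cisplatin (log2, horizontal axis) for the DEGs of the untreated strains, red for upregulated and blue for downregulated, with a dotted line of equality. Of the 281 upregulated genes 274, and of the 301 downregulated genes 297, have the same sign with cisplatin, and *MHT1* and *FIT2* lie on the opposite side.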

How the data were processed

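RNA of each culture was labelled by the authors with a 3' kit and hybridised to single-colour Affymetrix arrays. The deposited values are log2 signals from RMA, which the authors ran for 3 sets of 6 arrays apart from each other, so levels were compared only within a set. RMA gives the arrays of a set one distribution and so removes shifts common to all genes. The deposited p-values and FDR values, from limma as run by the authors, were not used. The untreated W303 arrays are listed again in another set, where they correlated with r = 0.999 with the values used here.

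The array holds 10715 probe sets, of which 5714 read *S. cerevisiae* genes, 4940 read *S. pombe* genes and 61 belong to neither species. Where a gene had more than 1 (16 genes), its probe set of highest mean entered the test, and 123 that read several genes stayed in, which left 5698 genes. Tests used limma 3.58.1 in R 4.3.3 (two-sided, no block). The number of arrays, 3 for each strain, limits how precisely a single gene is known.

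The rule for named genes took *SKY1* and its neighbours, the 15 largest increases and decreases among DEGs without overlap of the strains, and members of the gene lists. Members and lists were chosen with earlier results of these data known. Of 1128 distinct list names, 1122 matched by symbol and 4 by the locus tag of the RefSeq annotation, and *TDH2* and *TRP1* did not match.

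Deviations from the strain means correlated with r of 0.26, 0.22 and 0.43 between arrays of equal replicate number, and from -0.34 to -0.03 between others. An alternative fit took the replicate number as a block. The labels do not say that equal numbers belong together, so only these correlations bear on that pairing. Deviations within a strain sum to 0, so the negative values of the other pairs are not independent of the positive ones. In simulated data of 5698 genes for this comparison 44% of genes changed 1.6-fold were recovered, 98% of those changed 2-fold and 100% of those changed 3-fold or 4-fold, with 0 false calls. The simulation changed only 200 genes and drew independent normal noise for each gene and array. The real data hold far more changed genes and correlated arrays, so the 0 false calls do not estimate those among the DEGs. Limited recovery at 1.6-fold was fixed in advance, because the threshold lies at that change. Other alternatives left out each array, weighted or rescaled arrays, or changed probe sets, thresholds and the variance model.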

Additional observations from a re-analysis of the deposited data

Results flagged for a closer look

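For 5 of the named genes all W303-Δ*sky1* arrays lay on one side of all W303 arrays without cisplatin and on the opposite side with it. The difference between the comparisons was not tested, because the tables were normalized separately. *SUL1*, the sulfate permease, differed by 1.41 without and -0.36 with cisplatin. *MHT1*, the methyltransferase that forms methionine, differed by 0.73 without and -0.76 with the drug. *FIT2*, the iron-regulated mannoprotein, differed by -0.78 without and 1.503 with the drug. *LEU2*, of leucine synthesis, differed by 0.51 without and -0.23 with the drug, and *SCJ1*, a chaperone gene near *SKY1*, by 0.31 and -0.25. Over all genes 168 of 5698 (2.95%) had this pattern.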

How the results depend on the processing

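With the replicate number as a block there were 284 upregulated and 302 downregulated DEGs, which include all 281 and 301 of the fit without a block, and no named gene changed its call under this pairing. By the adjusted p alone there were 1419 higher and 1559 lower genes, with 56 lower 40S factors, 61 lower 60S factors, 12 higher fatty acid genes and 14 higher NAD genes. At a threshold of 2-fold the counts were 80 and 79, with 7 lower 40S factors, 5 lower 60S factors, 3 higher fatty acid genes and 1 higher NAD gene.

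With each array left out in turn, upregulated DEGs numbered from 273 to 326 and downregulated DEGs from 292 to 329, and genes past the adjusted p from 1135 to 1436 (higher) and from 1253 to 1567 (lower). The counts were from 25 to 28 for lower 40S factors, 19 to 24 for lower 60S factors, 7 for the glyoxylate cycle and gluconeogenesis, 4 to 6 for fatty acid genes and 6 to 7 for NAD genes, whose median was from 0.525 to 0.626. Of 185 named DEGs, 148 kept their call in all 14 refits and 33 lost it in at least 1. The other 4, on probe sets shared by several genes, were absent from the refit without such probe sets and kept their call in the rest.

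Among the named genes signs reversed only for those with differences near 0. With an array left out, *GUA1* ranged from -0.068 to 0.051, *ASG7* from -0.032 to 0.033, *SAG1* from -0.008 to 0.066, *MF(ALPHA)1* from -0.198 to 0.041, *MF(ALPHA)2* from -0.133 to 0.010 and *ADY2* from -0.531 to 0.475. With array weights *GUA1* was -0.030, *ASG7* 0.006, *MF(ALPHA)1* 0.033, *MF(ALPHA)2* 0.026 and *ADY2* -0.00037. With equal array medians *ASG7* was 0.012, and with cyclic loess *GUA1* was -0.011 and *ASG7* 0.00077. The cause of these moves was not tested. A search of promoters for motifs was not run, since no sequence table was used here.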
